A study of Mus musculus with 3 samples.

Results

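The 10 genes described here, Cyp2f2, Hal, Sds, Pck1, Gls2, Etnppl, Hsd17b6, Hsd17b13, Aldh1b1 and Ctsc, are periportal landmark genes of the mouse liver. They were found by symbol among the 55357 gene identifiers of 3 single-cell RNA-seq libraries, and all 10 had a single row. Their levels were read in hepatocytes, taken as barcodes with 3 to 30% of their UMIs (unique molecular identifiers, 1 per captured transcript) in mitochondrial genes and with no UMI of Ptprc, the leukocyte antigen CD45. This gate held 1299 of 11245 barcodes in the control library (CON), 870 of 12984 in the high-fat diet library (HFD) and 2470 of 12761 in the carbon tetrachloride library (CCL4). T cells, which transcribe few or no genes of liver metabolism, were read beside them as a gauge of free RNA, the transcripts from broken cells that enter every droplet.

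The liver lobule is supplied with blood at its rim, by the portal vein and hepatic artery, and drained at the central vein. Hepatocytes near the portal inflow carry out most gluconeogenesis, urea synthesis and amino acid breakdown, whereas those near the central vein carry out glutamine synthesis and much of the oxidative drug metabolism, under Wnt signalling from central vein endothelium. Cyp2f2 and Hal are used to mark the first kind of cell, and Glul and Cyp2e1 the second. Dissociation removes a cell from its place, so the position of a hepatocyte in the lobule was not measured here and was only read through such genes.

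By the submitters' title, the series covers liver cells in mouse models of steatohepatitis and fibrosis. The paper that reports it is on acute hepatitis. All mice were wild-type males on the C57BL/6 background, entered at 8 weeks of age, and each library pooled 2 of them (6 mice in all). CON mice received no treatment, HFD mice ate a diet with 60% of its energy as fat for 4 months, and CCL4 mice had normal chow for 3 months and then intraperitoneal injections of 0.1 mL of 10% carbon tetrachloride, a hepatotoxin activated mainly by Cyp2e1, 2 times a week for 4 weeks. Hepatocytes and non-parenchymal cells were isolated by collagenase perfusion and recombined in equal numbers, so the share of hepatocytes in a library is not their share in the liver. Gated hepatocytes made up 11.6% (CON), 6.7% (HFD) and 19.4% (CCL4) of barcodes. With 1 library per condition there is no replicate, so no p-value can be given. Intervals are 95% intervals of counting error only, and a difference between libraries cannot be told apart from a difference between animals, dissociations or runs.

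The libraries held 49613255 UMIs (CON), 34985786 UMIs (HFD) and 34061186 UMIs (CCL4). Gated hepatocytes had a median of 7845 UMIs in CON, 3578 in HFD and 3099.5 in CCL4, so gated CON cells held more UMIs each, while T cells had like medians of 2497.5, 2337.5 and 2158.5. Albumin, at 27498, 39974 and 66394 CPM (UMIs per 1000000 UMIs) in CON, HFD and CCL4, was abundant in the gate of every library, and the 8 core hepatocyte genes, albumin among them, took a median of 7.67%, 9.29% and 13.4% of a cell's UMIs. Cholangiocyte keratins were near 0 (Krt7 in 0, 0 and 2 cells and Krt19 in 3, 0 and 3 cells), and summed endothelial markers had a UMI in 55, 31 and 69 cells. Sox9, a transcription factor of bile duct cells and of some hepatocytes at the portal rim, was detected in 607, 79 and 557 gated cells, and Spp1 in 421, 75 and 287 cells. Haemoglobin and other erythroid transcripts summed to 1089, 266 and 245 CPM. Between 36 and 52 barcodes were shared by any pair of libraries, and 1 of them was a gated hepatocyte in both.

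The sequences just upstream of 4 of these genes are shown because the genes stand for 4 roles in the set, histidine breakdown, gluconeogenesis, phosphoethanolamine breakdown and steroid metabolism, and because all 4 were compared in the same cells below. They were taken from RefSeq windows on GRCm38.p6 (8 of the 10 genes had one) and end before the annotated gene start, given 5′ to 3′ on the strand of the gene. Letters in capitals mark a match to one of the 6 motifs searched on both strands.
Hal, chr10:93488518-93488767, plus strand: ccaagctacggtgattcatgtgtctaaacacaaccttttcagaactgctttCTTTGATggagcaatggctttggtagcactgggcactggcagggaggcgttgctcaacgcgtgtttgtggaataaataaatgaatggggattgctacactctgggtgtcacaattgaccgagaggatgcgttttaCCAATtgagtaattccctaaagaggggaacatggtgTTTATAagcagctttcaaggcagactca
Pck1, chr2:173152823-173153047, plus strand: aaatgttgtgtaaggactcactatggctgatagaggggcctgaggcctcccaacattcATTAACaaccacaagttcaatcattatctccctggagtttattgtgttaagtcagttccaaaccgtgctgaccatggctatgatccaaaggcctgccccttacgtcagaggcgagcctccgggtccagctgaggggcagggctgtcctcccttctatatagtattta
Etnppl, chr3:130617198-130617447, plus strand: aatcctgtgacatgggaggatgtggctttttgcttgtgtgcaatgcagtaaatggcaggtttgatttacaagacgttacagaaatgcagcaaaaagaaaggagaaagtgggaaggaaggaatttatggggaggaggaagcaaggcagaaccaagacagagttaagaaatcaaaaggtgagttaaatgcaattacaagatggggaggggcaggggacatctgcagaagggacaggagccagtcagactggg
Hsd17b6, chr10:128007612-128007861, minus strand: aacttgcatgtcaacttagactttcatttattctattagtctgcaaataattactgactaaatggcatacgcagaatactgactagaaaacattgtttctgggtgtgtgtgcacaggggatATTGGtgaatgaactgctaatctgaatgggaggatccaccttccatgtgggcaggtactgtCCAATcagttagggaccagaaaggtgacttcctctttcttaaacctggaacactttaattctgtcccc

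The motifs were the TATA box TATAAA, the CCAAT box, the cyclic AMP response element TGACGTCA, the HNF1 half-site GTTAAT, the HNF4 site CAAAGTCCA and the TCF site CTTTGAT, the letters to which the transcription factors of Wnt signalling bind. Over the 250 bases upstream, the TATA box was present in 1 of the 8 member genes (Hal) against 12.4% of 32851 RefSeq windows, the CCAAT box in 2 (Hal and Hsd17b6) against 33.8%, and the HNF1 half-site in 2 (Pck1, and Etnppl in another of its windows) against 6.43%. The TCF site was present in 1 (Hal) against 3.21%. A gene was counted when any of its windows matched, whereas each percentage is of single windows. The Etnppl window with the match ends at chr3:130617574, inside the annotated gene. The exact letters TGACGTCA and CAAAGTCCA were in none of the 8, against 1.55% and 0.384% of all windows. Variants of these sites, such as the ttacgtca in the Pck1 window above, were not searched, so their absence is not shown. A match of letters is a description of the window and says nothing on binding.

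On GRCm38 (GENCODE M21), Cyp2f2 lies at chr7:27119909-27133660, Hal at chr10:93488768-93519304, Sds at chr5:120476526-120483932, Pck1 at chr2:173153048-173159273 and Gls2 at chr10:128194457-128210004, all on the plus strand. Etnppl lies at chr3:130617448-130637521, Aldh1b1 at chr4:45799022-45804604 and Ctsc at chr7:88278085-88310888 on the plus strand, and Hsd17b6 at chr10:127990936-128007611 and Hsd17b13 at chr5:103955440-103977410 on the minus strand. Hal, Gls2 and Hsd17b6 share chromosome 10, and none of the 10 genes overlaps another gene on its own strand.

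Cyp2f2, a cytochrome P450 of small aromatic compounds, was at 815 CPM (798 to 832) in CON hepatocytes, 1172 CPM (1136 to 1209) in HFD and 1271 CPM (1248 to 1295) in CCL4. A UMI of it was present in 67.8% (65.2 to 70.4) of CON hepatocytes, 68.9% (65.7 to 71.9) of HFD and 93.9% (92.9 to 94.8) of CCL4 hepatocytes. Its level was thus lowest in CON and close in HFD and CCL4, while the share of cells carrying it was alike in CON and HFD and higher in CCL4. After thinning each cell to 1500 UMIs, which removes the difference in UMIs per cell, the shares were 52.7%, 58.5% and 81.1% in the same order. T cells of the same libraries held 126, 354 and 645 CPM, and 25.6%, 56.7% and 76.2% of them had a UMI, or 15.2%, 41% and 61.4% after thinning, so free RNA of this gene was plentiful and more so in HFD and CCL4.

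Among the enzymes of amino acid breakdown, Hal (histidine ammonia-lyase, the first step of histidine degradation) was at 216 CPM in CON, 383 CPM in HFD and 819 CPM in CCL4. Gls2, the liver glutaminase that feeds ammonia to urea synthesis, was at 122, 247 and 662 CPM. Both genes were lowest in CON and highest in CCL4, and the thinned share of positive cells followed the same order, from 23.9% through 35.8% to 68.3% for Hal and from 14.2% through 27.7% to 62.1% for Gls2. Sds, the serine dehydratase that turns serine into pyruvate, was at 132 CPM (126 to 139) in CON, 101 CPM (90.1 to 112) in HFD and 355 CPM (343 to 368) in CCL4, and Etnppl, which breaks down phosphoethanolamine, was at 20 CPM (17.5 to 22.8), 109 CPM (98 to 121) and 341 CPM (329 to 353). Sds was therefore the one of these 4 that was lower in HFD than in CON, and Etnppl was the rarest of them in CON, where 13.8% of hepatocytes had a UMI against 26.7% in HFD and 60.5% in CCL4.

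Pck1, the cytosolic phosphoenolpyruvate carboxykinase that commits carbon to gluconeogenesis, was the most abundant of the 10 genes in every library, at 1531 CPM (1508 to 1554) in CON, 1568 CPM (1526 to 1611) in HFD and 2902 CPM (2868 to 2938) in CCL4. It was also the most widely detected, in 97.2%, 95.4% and 99.1% of hepatocytes. The intervals of CON and HFD overlapped, and CCL4 stood above both. Since UMIs count 3′ ends, 1 per molecule, levels of different genes can be set side by side without a correction for length.

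The remaining 4 genes encode hydroxysteroid dehydrogenases, an aldehyde dehydrogenase and a protease. Hsd17b6, which oxidizes androgens and retinol, was at 74.5 CPM in CON, 239 CPM in HFD and 435 CPM in CCL4, and Hsd17b13, a protein of the lipid droplet surface, was at 365, 408 and 751 CPM. Aldh1b1, a mitochondrial aldehyde dehydrogenase, was at 30.8, 59.9 and 198 CPM. All 3 were highest in CCL4 and lowest in CON, although Hsd17b13 differed little between CON and HFD. Ctsc (cathepsin C, a lysosomal protease that activates granule proteases of leukocytes) was ordered in another way, at 342 CPM (331 to 353) in CON, 136 CPM (124 to 150) in HFD and 209 CPM (199 to 218) in CCL4, with 57.4%, 32.9% and 48.5% of hepatocytes positive.

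**Figure D1:**
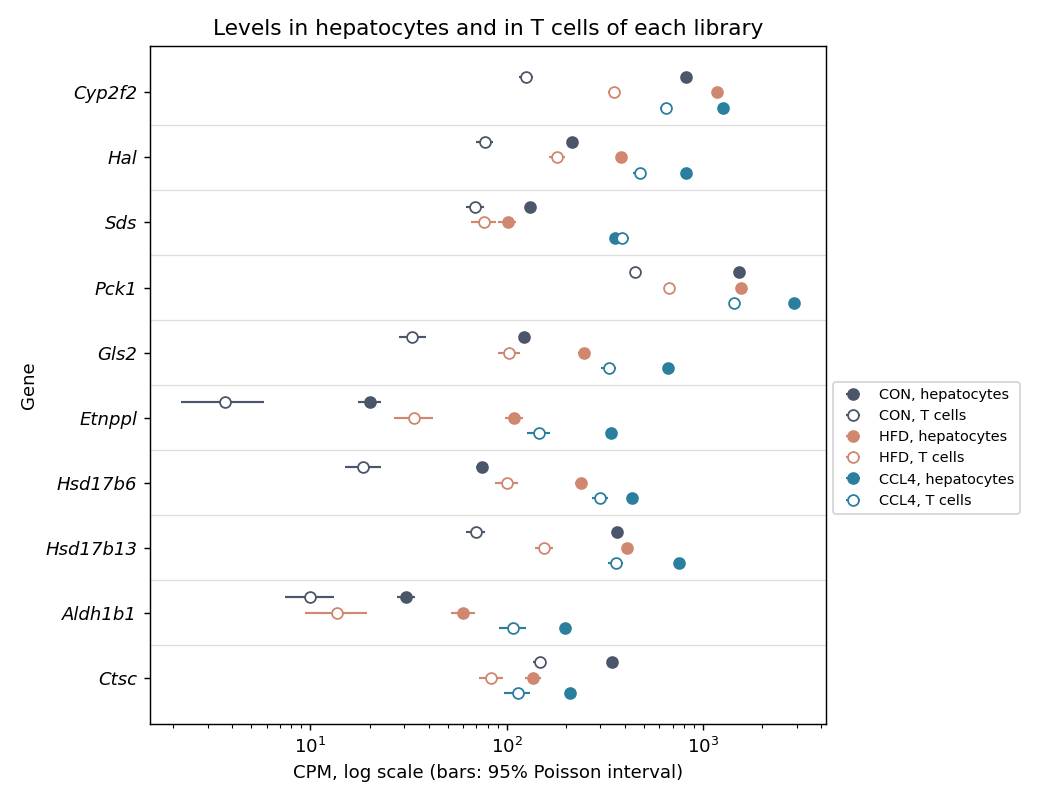
CPM (log scale) of each of the 10 genes in gated hepatocytes (filled) and T cells (open) of the CON, HFD and CCL4 libraries, with 95% Poisson intervals as bars. Hepatocytes lie to the right of T cells in every row except Sds in CCL4 (355 against 387 CPM), and the gap is narrower in CCL4 than in CON for all 10 genes, as for Cyp2f2 at 815 against 126 CPM in CON and 1271 against 645 CPM in CCL4.

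How far the hepatocyte level stood above free RNA was measured as the ratio of hepatocyte to T cell CPM within each library. The interval of this ratio lay above 1 for 10 of the 10 genes in CON (27.5% of all genes tested), 10 in HFD (25.7%) and 9 in CCL4 (26.8%). The median ratio of the 10 genes was 3.54 in CON, 2.4 in HFD and 1.9 in CCL4, against 0.624, 0.845 and 0.89 over all genes tested. The core hepatocyte genes had medians of 3.22, 1.57 and 1.25, so the T cells of HFD and CCL4 held more hepatocyte RNA in general. Cyp2f2 had the highest ratio of the 10 in CON, 6.49 (5.98 to 7.05), and Aldh1b1 in HFD, 4.37 (3 to 6.56). The Aldh1b1 ratio in HFD rested on 32 T cell UMIs (13.7 CPM). B cells of HFD held 30.1 CPM of Aldh1b1, NK cells 28.9 CPM and macrophages and monocytes 36.2 CPM, so its rank depends on the use of T cells. The lowest was Sds in each library, at 1.91 (1.7 to 2.16) in CON, 1.32 (1.1 to 1.59) in HFD and 0.918 (0.84 to 1.01) in CCL4. By CPM, the Sds level of CCL4 hepatocytes was thus not above that of T cells. It was uneven among those hepatocytes, at 436 CPM in cells with the fewest pericentral transcripts and 239 CPM in cells with the most (groups described below). The thinned share of positive cells was higher in hepatocytes than in T cells for 10 genes in CON, 10 in HFD and 9 in CCL4, again without Sds (40.5% against 43.6%). The share of all genes for which this held was not recorded, so these counts have no background. In addition, Ptprc-negative droplets under 3% mitochondrial UMIs, which made up 40.1%, 62.9% and 60.2% of barcodes, held 252, 143 and 504 CPM of Sds, more than the gated hepatocytes did in each library.

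Levels were then compared between libraries, first HFD against CON. A gene was counted as higher or lower when its CPM, with 1 added, differed at least 2-fold, among genes with at least 10 CPM in either library. Of the 10 genes 3 were higher in HFD, against 6.66% of all genes tested, and 1 was lower, against 5.33%. The higher genes were Etnppl with a CPM ratio of 5.44 (4.59 to 6.46), Hsd17b6 with 3.2 (2.9 to 3.53) and Gls2 with 2.04 (1.87 to 2.22). Gls2 fell short of the limit with a 5% lower mitochondrial limit (1.51 on CPM with 1 added, leaving 2 genes higher) and with the T cell level taken off (1.63, with Aldh1b1 at 2.17 past the limit instead). The lower gene was Ctsc at 0.399 (0.362 to 0.44). Aldh1b1 was just short of the limit at 1.95 (1.63 to 2.32), followed by Hal at 1.77 (1.65 to 1.89) and Cyp2f2 at 1.44 (1.38 to 1.49). Hsd17b13 at 1.12 (1.05 to 1.19), Pck1 at 1.02 (0.993 to 1.06) and Sds at 0.76 (0.673 to 0.855) were nearest to the control level or below it. The median ratio over the 10 genes was 1.6, against 1.08 over all genes tested.

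In CCL4 against CON, 7 of the 10 genes were at least 2-fold higher (6.57% of all genes tested) and 0 were 2-fold lower (6.98%). Etnppl had a ratio of 17 (14.9 to 19.6), Aldh1b1 of 6.43 (5.72 to 7.24), Hsd17b6 of 5.84 (5.42 to 6.31) and Gls2 of 5.44 (5.13 to 5.78). Hal followed at 3.78 (3.61 to 3.96), Sds at 2.68 (2.52 to 2.85) and Hsd17b13 at 2.06 (1.98 to 2.14). The genes under the limit were the 2 most abundant, Pck1 at 1.9 (1.86 to 1.93) and Cyp2f2 at 1.56 (1.52 to 1.6), and Ctsc at 0.611 (0.578 to 0.645). The median ratio was 3.22, against 1.03 over all genes. Both comparisons used the same control library, so they are not independent of each other, and Etnppl, the rarest of the 10 genes in CON, had the highest ratio in both.

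CCL4 against HFD gave 5 of the 10 genes at least 2-fold higher (2.24% of all genes tested) and 0 lower (4.04%). These were Sds at 3.53 (3.16 to 3.96), Aldh1b1 at 3.3 (2.85 to 3.84), Etnppl at 3.13 (2.81 to 3.5), Gls2 at 2.67 (2.49 to 2.88) and Hal at 2.14 (2.02 to 2.27). Sds was at 355 CPM in CCL4 hepatocytes but 387 CPM in T cells, where its ratio of CCL4 to HFD was 5.07 (4.28 to 6.03). With the T cell level taken off, fewer genes were higher in CCL4 and Sds was lower, as given in the last section. Cyp2f2 differed least between the treated libraries, at 1.08 (1.05 to 1.13), and Ctsc, which like Sds was lowest in HFD, was at 1.53 (1.38 to 1.7). The median ratio was 1.99, against 0.963 over all genes tested.

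**Figure D2:**
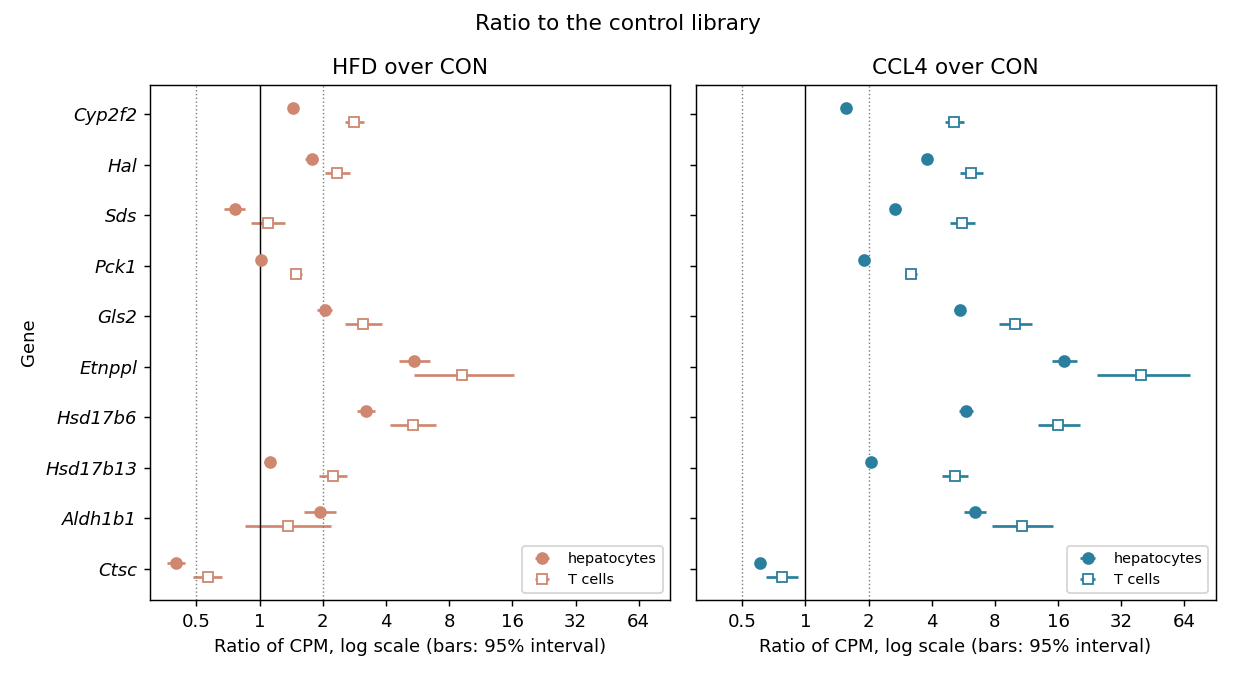
Ratio of CPM in HFD (left) and CCL4 (right) to CPM in CON for each gene, in hepatocytes (filled circles) and in T cells (open squares), on a log axis with 95% intervals as bars, a solid line at 1 and dotted lines at 0.5 and 2. T cell ratios lie to the right of the hepatocyte ratios for all genes but Aldh1b1 in HFD (1.37 against 1.95), with Etnppl in CCL4 at 39.6 in T cells and 17 in hepatocytes.

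T cells showed the same order of libraries for all of these genes but Sds. In T cells, Cyp2f2 was 5.13-fold (4.63 to 5.69) higher in CCL4 than in CON, Hal 6.17-fold (5.44 to 7.01) and Etnppl 39.6-fold (24.5 to 68), each more than in hepatocytes. The ratios were therefore computed again with the full T cell CPM of each library taken off. The number of genes higher in CCL4 than in CON was then 5, and 2, Sds and Ctsc, were lower. The share of all genes past the limit was not recorded for this setting. Ctsc, at 0.489 against 0.612 before, is known from cytotoxic lymphocytes, so more than free RNA may have been taken off. Cyp2f2, on CPM with 1 added, was then at a ratio of 0.909 rather than 1.56, whereas Etnppl was at 11.3, Aldh1b1 at 4.18, Gls2 at 3.7, Hal at 2.45 and Hsd17b6 at 2.44. The full T cell level was more than some hepatocytes held, since those with the most pericentral transcripts, described below, had 96.4 CPM of Cyp2f2 in CON and 97.8 CPM in HFD, under the 126 and 354 CPM of the T cells.

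Other values moved with the library. Acute-phase and metal response transcripts were far higher in CON hepatocytes, with Saa1 at 11209, 516 and 169 CPM, Saa2 at 11475, 269 and 69.6 CPM and Mt1 at 6905, 183 and 395 CPM in CON, HFD and CCL4. The summed cholangiocyte markers, of which Sox9 and Spp1 made nearly all, were at 438, 90.8 and 182 CPM. Leaving out every barcode with at least 2 UMIs of the cholangiocyte, endothelial or mesenchymal lists raised the number of genes higher in HFD than in CON from 3 to 6, with Cyp2f2 at 2.25, Hal at 2.52 and Aldh1b1 at 2.93 past the limit, and Ctsc at 0.673 was no longer counted as lower. This filter was uneven between the libraries. The cholangiocyte list alone reached 2 UMIs in 545 CON hepatocytes (42%), against 4.02% of HFD and 8.83% of CCL4 hepatocytes. Leaving out barcodes by Epcam, Krt7, Krt19 and the endothelial and mesenchymal lists, without Sox9 and Spp1, left the counts at 3 and 1. The share of all genes past the limit was not recorded for either filter. The part of the acute-phase transcripts in the differences was not tested. Levels also moved with the mitochondrial share inside the gate. Cyp2f2 was at 431, 902 and 890 CPM in CON cells with 3 to 5%, 5 to 10% and 10 to 30% mitochondrial UMIs, and at 1207, 1292 and 1519 CPM in those of CCL4, while Sds was at 82, 137 and 267 CPM and at 309, 369 and 534 CPM. CCL4 was above CON for both genes in each of the 3 ranges.

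Other genes of the periportal programme were counted from a list of 12 (urea cycle, gluconeogenesis, secreted and adhesion proteins). In HFD against CON 2 were higher and 0 lower among the 11 tested, with G6pc (glucose-6-phosphatase) at 3.16 and Asl (argininosuccinate lyase) at 2.51 highest, and Apof at 0.571 and Pigr at 0.899 lowest. In CCL4 against CON 7 of 12 were higher and 1 lower. G6pc at 8.26 and Asl at 5.66 again led, and Cdh1, which encodes E-cadherin, was at 0.226 and Apof at 0.89. Cdh1, at 97.9, 89.9 and 22.2 CPM in CON, HFD and CCL4, thus went the other way in CCL4 from 9 of the 10 landmark genes. In CCL4 against HFD 4 were higher and 1 was lower, with G6pc at 2.61 and Asl at 2.26 highest and Cdh1 at 0.246 and Arg1 at 1.41 lowest.

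The pericentral list of 12 genes was ordered differently. In HFD against CON 7 of 11 tested were higher and 0 lower, in CCL4 against CON 0 were higher and 7 of 9 lower, and in CCL4 against HFD 0 were higher and 11 of 11 lower. Cyp2e1 was at 913, 2355 and 290 CPM in CON, HFD and CCL4, and Glul (glutamine synthetase) at 262, 880 and 52.7 CPM. A library with more cells of one zone, and one with more of a transcript in each cell, give the same sum, and these cannot be told apart from summed levels.

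Single cells were next ordered within each library by the share of their UMIs in the pericentral genes, none of which is one of the 10. They were cut into 3 equal groups. The outer groups, called pericentral-low and pericentral-high cells, held 433 cells each in CON, 290 in HFD and 823 in CCL4. The cuts were set within each library and lay at 0.121% and 0.421% pericentral UMIs in CON, 0.181% and 1% in HFD, and 0.0175% and 0.0732% in CCL4. The upper cut of CCL4 was thus below the lower cuts of CON and HFD. Many pericentral-high cells of CCL4 would therefore count as pericentral-low in the other libraries, and the groups are compared only within a library. Equal groups cut within each library cannot tell more cells of a zone from more transcript per cell. Of the 10 genes 9 were at least 1.5-fold higher in pericentral-low than in pericentral-high cells in CON (9.46% of all genes tested), 10 in HFD (14.8%) and 5 in CCL4 (3.01%). None of them was 1.5-fold higher in pericentral-high cells in any library, against 13.1% of all genes tested in CON, 16.3% in HFD and 4.87% in CCL4. The median ratio of pericentral-low to pericentral-high cells was 12.4 in CON, 14.7 in HFD and 1.54 in CCL4, against 0.925, 0.961 and 0.951 over all genes.

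Cyp2f2 was at 1162 CPM in pericentral-low and 96.4 CPM in pericentral-high cells of CON, at 1987 and 97.8 CPM in HFD, and at 1355 and 1158 CPM in CCL4. The ratios were 12.1 (10.7 to 13.6), 20.3 (16.7 to 25) and 1.17 (1.12 to 1.23). Within CON and HFD the level fell steeply toward pericentral-high cells, and within CCL4 it was nearly even between the groups. Hal was at 319 CPM (CON), 660 CPM (HFD) and 929 CPM (CCL4) in pericentral-low cells and at 29.5, 53.6 and 638 CPM in pericentral-high cells. Etnppl was at 31.6, 187 and 408 CPM in the first and 2.2, 5.64 and 212 CPM in the second. Both genes were higher in pericentral-low cells of each library, with the smallest ratio in CCL4.

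Aldh1b1 had the widest gap in CON, 57.2 against 1.26 CPM (ratio 45.5, 17.6 to 168), and in CCL4, 246 against 108 CPM (2.28, 1.99 to 2.61). In HFD the widest was that of Etnppl, 33.2 (15 to 91.3). The other ratios ran from 10.8 (Hal) to 27 (Hsd17b6) in CON and from 10.9 (Sds) to 21.5 (Ctsc) in HFD apart from Pck1. Ctsc belonged to the steeper genes in both, at 17.9 (14.5 to 22.4) in CON and 21.5 (12.2 to 42.1) in HFD, although its order between the libraries was unlike that of the rest.

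Pck1 was the exception in CON, where it was at 1420 CPM in pericentral-low and 1776 CPM in pericentral-high cells, a ratio of 0.8 (0.771 to 0.829). In HFD it was at 2073 and 909 CPM (2.28, 2.12 to 2.46) and in CCL4 at 3158 and 2419 CPM (1.31, 1.27 to 1.35). The gene was therefore higher in pericentral-high cells of CON and lower in those of HFD, and that difference between libraries was not tested.

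**Figure D3:**
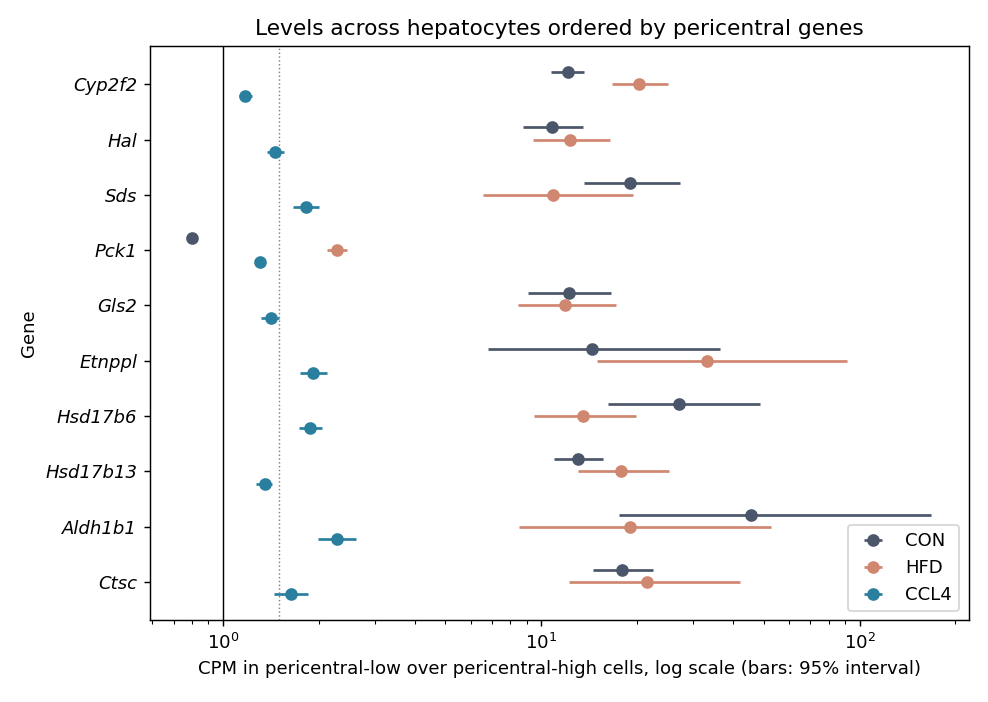
Ratio of CPM in pericentral-low to CPM in pericentral-high hepatocytes, for each gene and library, on a log axis with 95% intervals as bars, a solid line at 1 and a dotted line at 1.5. CON and HFD lie between 10.8 and 45.5 for all genes but Pck1 (0.8 and 2.28), and CCL4 lies between 1.17 and 2.28.

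The order rested on few UMIs in CCL4, where 30.4% of hepatocytes had no pericentral UMI at all, against 1.77% in CON and 1.03% in HFD. Between 107 and 160 cells per library lay within 10% of a cut. Pericentral-low cells were deeper in CON (median 9968 against 7080 UMIs) and HFD (4397 against 3500.5) and not in CCL4 (2830 against 2917). The same ordering of T cells, which carry free RNA of both kinds of gene, gave median ratios of 1.06, 0.961 and 0.981 for the 10 genes. The ratios in T cells ran from 0.643 to 1.54 in CON, where 1 gene was past 1.5-fold, from 0.734 to 1.28 in HFD and from 0.908 to 1.41 in CCL4. In CON and HFD these lay far under the hepatocyte medians, whereas in CCL4 the highest came close to the hepatocyte median of 1.54.

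Co-detection in single hepatocytes was measured as the odds ratio of finding a UMI of 1 gene in cells with and without a UMI of the other, pooled over 10 groups of cells of like depth. Among the 45 pairs of the 10 genes the odds ratio was above 1 in 43 of 44 pairs in CON (1 pair had no cell to set the ratio), 45 of 45 in HFD and 44 of 45 in CCL4, with medians of 8.3, 4.38 and 1.79. Pairs of 1 of these genes with any gene of at least 50 CPM were above 1 in 41.5%, 44.4% and 46.1% and had medians of 0.933, 0.957 and 0.983, and pairs with a pericentral gene had medians of 0.205, 0.219 and 0.448. In T cells the odds ratio of the same pairs was above 1 in 37 of 38 pairs in CON, 33 of 44 in HFD and 27 of 45 in CCL4, with medians of 1.66, 1.14 and 1.05. T cells thus also gave more pairs above 1 than below in each library, most of all in CON, at lower median odds than hepatocytes. The share for pairs with any gene was not recorded in T cells. The source of the pairs above 1 in T cells was not tested.

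Cyp2f2 was the gene most tightly tied to the others, with a median odds ratio over its 9 pairs of 17.6 in CON, 7.96 in HFD and 2.56 in CCL4. Its pair with Hsd17b6 was the strongest of all in CON, at 25.4, with both genes in 368 cells where 280 were expected from depth and their separate frequencies. The pair with Hsd17b13 was the strongest in HFD, at 15.4 (449 cells, 347 expected), and that with Gls2 in CCL4, at 3.34 (2000 cells, 1966 expected). With Cyp2e1, by contrast, Cyp2f2 had odds ratios of 0.0756, 0.0367 and 0.192. Pck1 was the most loosely tied in CON and HFD, with medians of 1.89 and 2.81, and held the 2 pairs below 1, with Aldh1b1 in CON (0.368) and with Hsd17b13 in CCL4 (0.527). Pck1 was present in nearly all cells, so these odds rest on few negative cells.

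**Figure D4:**
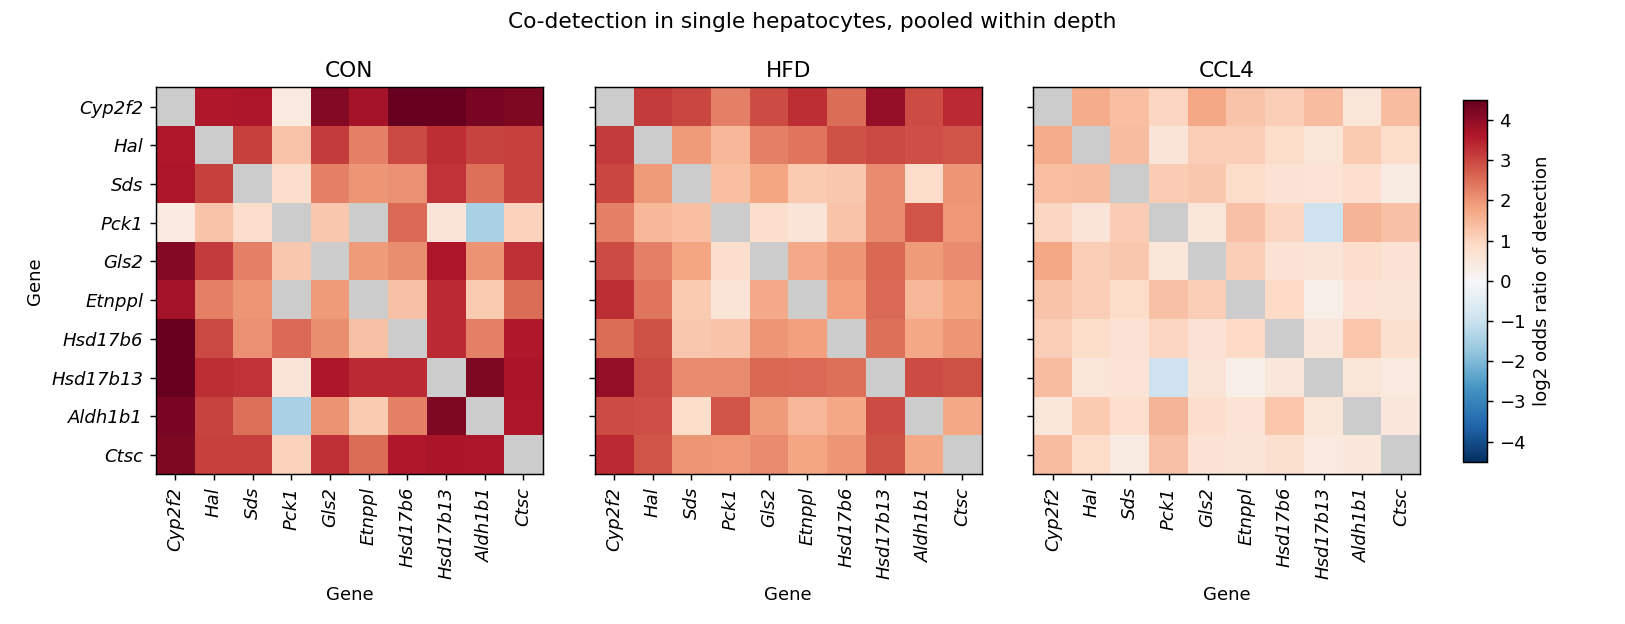
Odds ratio of co-detection, as log2, for every pair of the 10 genes in hepatocytes of each library, pooled within 10 groups of like depth, red above 0 and blue below, with grey for a gene with itself and for the 1 pair without a ratio. The red is deepest in CON along the Cyp2f2 row (median odds ratio 17.6) and palest in CCL4 (2.56), and the Pck1 row is pale in CON.

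Hepatocytes held a median of 5 of the 10 genes in CON, 5 in HFD and 8 in CCL4, and T cells 2, 3 and 5. At least 8 of the 10 were present in 25.3% of CON, 20.5% of HFD and 50.9% of CCL4 hepatocytes, and in 0.887%, 0.446% and 7.28% of T cells. All 10 were found together in 38, 14 and 288 hepatocytes, and 12 CON and 12 HFD hepatocytes held none of them, while 0 of 2470 did in CCL4. These counts were not thinned, so the deeper CON cells had more chance to show a gene.

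The simplest reading of zonation in single cells, Cyp2f2 against Cyp2e1, differed between the libraries. In CON 36.5% of hepatocytes had a UMI of Cyp2f2 without Cyp2e1, 28.7% had Cyp2e1 without Cyp2f2, 31.3% had both and 3.46% neither. In HFD these shares were 11%, 30.9%, 57.8% and 0.23%, and in CCL4 68.4%, 3.68%, 25.5% and 2.43%. Cells with Cyp2f2 alone were thus the largest class in CON and CCL4 and cells with both the largest in HFD. T cells gave 9.76%, 42.1%, 15.8% and 32.3% in CON, 1.23%, 42.7%, 55.5% and 0.558% in HFD, and 45.6%, 9.87%, 30.6% and 13.9% in CCL4. The share with both was close to that in T cells in HFD and below it in CCL4. In these libraries it is not read as cells that express both genes. Shares were not thinned here, so the deeper CON hepatocytes had more chance to show either gene.

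**Figure D5:**
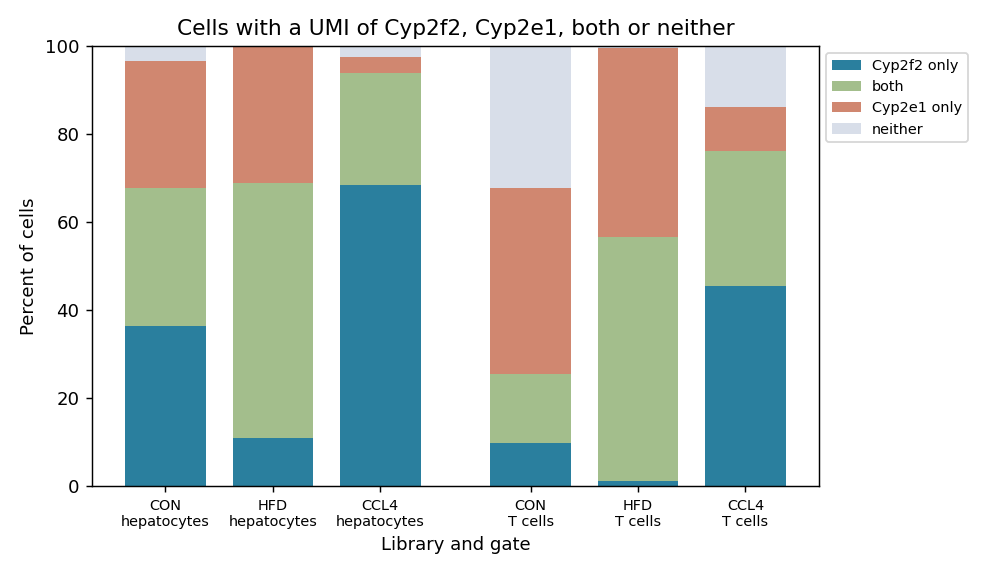
Percent of cells with a UMI of Cyp2f2 only, both genes, Cyp2e1 only or neither, in hepatocytes (left 3 bars) and T cells (right 3 bars) of each library. Both genes are found together in 57.8% of HFD hepatocytes and 55.5% of HFD T cells, and Cyp2e1 alone falls to 3.68% of CCL4 hepatocytes.

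The genes whose level across hepatocytes most resembled that of Cyp2f2, apart from the 10, were looked for among genes with at least 50 CPM in every library. These were 2054, of which 7 were landmark genes. Likeness was the mean over the 3 libraries of Pearson's r of log-transformed UMIs scaled to an equal total per cell. The highest were Alb (mean r 0.60), Hpx (0.48), Fgb (0.45), Fgg (0.44) and Mup20 (0.42), which encode secreted plasma proteins and a major urinary protein. The lowest were Cyp2e1 (−0.61), Cyp2c29 (−0.58), Cyp2c50 (−0.53), Oat (−0.51) and Rgn (−0.49). Of the 7 landmark genes compared, Hsd17b13 (0.51) and Hal (0.47) were nearest. Etnppl and Aldh1b1 were under 50 CPM in CON and were not compared. The values were weaker in CCL4, where Alb had r of 0.31 against 0.71 in CON and 0.79 in HFD and Cyp2e1 had −0.31 against −0.76 and −0.76. The median r over all genes compared was −0.01 in each library. Cells of a library share its depth and free RNA, so these values describe the libraries and carry no test.

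Ctsc was the one of the 10 with a clear source outside hepatocytes. Macrophages and monocytes, gated by Csf1r, Adgre1, Cd68 and the C1q genes, held 850 CPM (791 to 912) of it in CON (162 cells), 463 CPM (413 to 518) in HFD (213 cells) and 457 CPM (306 to 656) in CCL4 (22 cells). These levels were above those of hepatocytes in every library, and above the 147, 83.1 and 114 CPM of T cells. Macrophage markers in the hepatocyte gate summed to 4.44, 9.79 and 2.85 CPM, so few such cells lay within it. Ctsc is also known from cytotoxic lymphocytes, so its T cell level is not a gauge of free RNA alone. Cyp2f2 in macrophages and monocytes, at 88.2, 325 and 504 CPM, was at or below its T cell level.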

How the data were processed

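Single-cell suspensions of 3 groups of mouse livers were captured with a 10x Genomics 3′ kit, and the authors deposited matrices of raw UMI counts, with genes in rows and barcodes in columns, from Cell Ranger (7.2.0 per the file headers). The study's methods name mm10 as the reference, while the submitters' processing notes list GRCm39 and Seurat; the matrices hold no coordinates, and 52081 of the 55357 identifiers were in GENCODE M21 (GRCm38), used here for gene positions. How barcodes were called was not given in the sources used here. No count was altered.

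The 10 genes and all gene lists were chosen with earlier results of these data known. Every member was named, the other periportal list was counted and named by its 2 highest and 2 lowest ratios, and the pericentral list was counted with Cyp2e1 and Glul named. Hepatocytes had 3 to 30% of UMIs in 37 mitochondrial genes and no Ptprc UMI. T cells had at least 2 Cd3d, Cd3e or Cd3g UMIs, a Ptprc UMI and no Cd79a or Cd79b UMI. Macrophages and monocytes had at least 3 marker UMIs, B and NK cells were gated likewise. UMIs were summed per library and given as CPM with exact Poisson intervals, shares with exact Clopper-Pearson intervals and ratios with exact conditional intervals (95%, counting error only). Odds ratios were Mantel-Haenszel estimates over 10 depth groups, leaving out pairs with under 5 expected cells. No doublet caller was run, and the 8% of gated barcodes with the most UMIs were left out as an alternative. Minimum depth among barcodes was 1629 (CON), 1827 (HFD) and 1671 (CCL4) UMIs. Cyp2f2, Gls2 and Ctsc overlap 1 gene on the opposite strand and Sds overlaps 2; strand handling was not given in the sources used here. Methods were tested on simulated data. Python 3.11.15, numpy 2.4.6, scipy 1.17.1, pandas 2.3.3 and matplotlib 3.10.9 were used.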

Additional observations from a re-analysis of the deposited data

Results flagged for a closer look

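Pck1 went in opposite directions across hepatocytes of different libraries. Its ratio of pericentral-low to pericentral-high cells was 0.8 in CON, 2.28 in HFD and 1.31 in CCL4, with intervals on opposite sides of 1. With 1 library per condition the difference between libraries was not tested.

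Sds was lower in HFD than in CON hepatocytes (ratio 0.76) and higher in CCL4 than in CON (2.68), and the difference between these effects was not tested. The Sds level of CCL4 hepatocytes was 355 CPM against 387 CPM in T cells of that library.

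Outside hepatocytes, the Ctsc level of macrophages and monocytes over that of T cells was 5.79 in CON, 5.57 in HFD and 4.01 in CCL4. For Aldh1b1 the interval of this ratio lay above 1 in macrophages and monocytes of HFD (2.64, 1.49 to 4.63, on 24 UMIs) and in B cells of HFD (2.2, 1.16 to 4.03, on 18 UMIs). It included 1 in those cells of CON (1.21 and 1.34) and of CCL4 (0.731 and 1.1). The T cell level under the HFD ratios was low, at 13.7 CPM on 32 UMIs, and NK cells of HFD held 28.9 CPM.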

How the results depend on the processing

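Of 135 recomputed summary values, 118 stayed within the limits set and 17 moved, and of 645 values of single genes 437 stayed, 206 moved and 2 reversed. Taking off the T cell level gave 2 genes lower in HFD than in CON, 2 lower in CCL4 than in CON, and 2 higher and 1 lower in CCL4 than in HFD. It also turned Sds, at ratios of 0.0156 (CCL4 over CON) and 0.0396 (CCL4 over HFD), because its T cell level exceeded its hepatocyte level in CCL4. With a 1.5-fold limit 5 genes were higher in HFD than in CON, 1 was lower in CCL4 than in CON and 9 were higher in CCL4 than in HFD. Without barcodes of other cell type lists, a filter that took far more cells from CON, 6 were higher and 0 lower in HFD than in CON. Higher in pericentral-low cells of CCL4 were 8 genes with 4 groups of cells in place of 3, and 1 with a 2-fold limit. The share of all genes past the limit was not recorded under any alternative setting. Such counts, here and above, therefore have no background to be set against. The summed CPM of the 10 genes (3648, 4423 and 7943 in CON, HFD and CCL4) was 2574, 2681 and 6585 with no lower mitochondrial limit and 3893, 3965 and 8199 with a 5% limit. The cause of these shifts, apart from that of Sds, was not tested. The alternative that left Sox9 and Spp1 unused was chosen after seeing the data. With 1 library per condition, none could be left out, and depth limits the order of cells in CCL4.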
